A study of Mus musculus with 15 samples.

Results

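The genes described here are 10 core genes of tumor necrosis factor (TNF) and NF-kappa B signaling, namely Tnf, Tnfrsf1a, Tnfrsf1b, Nfkb1, Nfkb2, Rela, Relb, Rel, Nfkbia and Tnfaip3. They were selected by gene symbol from the 54532 genes of the liver and lung count tables, and all 10 were listed in both. RNA-seq was performed on the livers of 4 mice fed a control diet (CS) and 5 mice fed a diet with 2% phytosterols (PS), and on the lungs of 3 CS and 3 PS mice. Phytosterols are plant sterols that resemble cholesterol. All mice were male, wild-type C57BL/6J animals without a transgene or knockout, and the labels give an age of 28 weeks for every one. The feeding schedule in the methods adds up to an older age, so the age is uncertain. Each library came from 1 mouse, and 6 mice gave both a liver and a lung library. The comparison of PS with CS within a tissue asks whether the diet was accompanied by a different expression of these genes.

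TNF is a cytokine made mainly by macrophages and other immune cells. It binds TNF receptor 1, which most cells carry, and TNF receptor 2, which is found mainly on immune and endothelial cells. Receptor 1 recruits adaptor proteins and ubiquitin ligases that activate the I kappa B kinase complex, whose regulatory subunit is NEMO. The kinase marks I kappa B proteins for degradation, and NF-kappa B dimers built from the Rel family proteins then enter the nucleus. In the canonical arm the dimers are mostly of RelA (encoded by Rela) and p50 (from Nfkb1). In the non-canonical arm, opened by lymphotoxin and CD40 receptors, the precursor encoded by Nfkb2 is processed to p52, which pairs with RelB. Among the target genes are the inhibitors themselves, I kappa B alpha (Nfkbia) and the ubiquitin-editing enzyme A20 (Tnfaip3), which close a negative feedback loop. These steps are largely set by protein degradation and location, which mRNA levels do not record.

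The proximal promoters of the feedback inhibitors and of 2 Rel family genes are printed because they held letters of the kappa B motif close to the transcription start. RefSeq promoter windows on GRCm38.p6, from 250 bases before to 50 bases after the start, were found for 8 of the 10 genes, in 11 windows. Nfkb1 and Relb had no window in the table. The 10-letter kappa B consensus was searched on both strands and matched in 6 of the 11 windows, against 1480 of all 32851 promoter windows (4.51%). These were windows of Nfkb2, Rel, Nfkbia and Tnfaip3, that is of 4 of the 8 genes. Windows 2 and 3 of Nfkb2 overlap and share a matched site, which was counted in each. The shorter form GGGNNTTCC, which overlaps the consensus, was found in 3 of the 11 windows and in 5.82% of all windows. The consensus began 29 bases upstream of the start in Nfkbia (chr12:55492598-55492897, minus strand), 125 and 12 bases upstream in Tnfaip3 (chr10:19015361-19015660, minus strand), 39 and 11 bases upstream in the first of 3 windows of Nfkb2 (chr19:46304487-46304786, plus strand), and 92 bases upstream in Rel (chr11:23770920-23771219, minus strand). The sequences run 5′ to 3′ on the strand of the gene, and capitals mark the bases covered by the consensus on either strand.
Nfkbia promoter: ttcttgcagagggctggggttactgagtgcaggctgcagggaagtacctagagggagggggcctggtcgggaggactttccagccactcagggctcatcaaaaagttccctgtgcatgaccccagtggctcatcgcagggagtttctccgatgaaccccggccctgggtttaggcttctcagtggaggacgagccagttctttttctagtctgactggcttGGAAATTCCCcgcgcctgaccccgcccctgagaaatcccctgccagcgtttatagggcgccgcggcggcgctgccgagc
Tnfaip3 promoter: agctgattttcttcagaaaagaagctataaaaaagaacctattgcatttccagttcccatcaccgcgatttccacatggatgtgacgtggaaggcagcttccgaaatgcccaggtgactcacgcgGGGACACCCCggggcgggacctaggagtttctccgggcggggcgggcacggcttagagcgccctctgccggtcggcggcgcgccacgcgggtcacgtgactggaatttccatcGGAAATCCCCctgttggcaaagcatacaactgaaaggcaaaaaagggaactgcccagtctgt
Nfkb2 promoter: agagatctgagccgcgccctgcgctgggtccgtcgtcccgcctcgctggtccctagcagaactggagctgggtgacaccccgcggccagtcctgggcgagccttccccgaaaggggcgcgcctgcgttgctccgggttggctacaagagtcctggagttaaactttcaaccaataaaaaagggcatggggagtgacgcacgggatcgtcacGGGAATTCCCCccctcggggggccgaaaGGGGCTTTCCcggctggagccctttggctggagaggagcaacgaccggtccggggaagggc
Rel promoter: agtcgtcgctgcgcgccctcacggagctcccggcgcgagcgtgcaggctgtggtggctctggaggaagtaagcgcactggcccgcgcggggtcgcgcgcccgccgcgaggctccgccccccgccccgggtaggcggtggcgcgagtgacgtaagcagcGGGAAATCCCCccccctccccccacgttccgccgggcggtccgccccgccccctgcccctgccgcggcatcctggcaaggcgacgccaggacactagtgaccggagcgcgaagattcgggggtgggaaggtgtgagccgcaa
These matches describe letters in a 300-base window and are not binding sites measured here.

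The libraries held 14410117 to 17625179 counts in the liver and 17934930 to 19396057 in the lung. The tissue labels fitted the markers: 8 hepatocyte genes summed to 79759 to 122578 CPM (reads of a gene scaled to a common library size) in the livers and to 6.95 to 134 in the lungs, and 8 lung epithelium genes to 63013 to 100923 CPM in the lungs and to 2.32 to 7.01 in the livers, where Nkx2-1 was at 0. Liver CS replicate 2 stood apart from the other CS livers, with a chi-square of its counts against theirs of 262.9 to 331.5 per degree of freedom, compared with 42.2 to 96.6 among the other 3, so liver results that rest on it are given with and without it. CPM values here were scaled by edgeR's TMM method within each tissue and are not to be compared between liver and lung.

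In the liver, the mRNA of the TNF ligand was near the limit of detection with either diet, and none of the 9 other genes passed the test of the diet effect. Tnf had 4, 6, 0 and 4 counts in the CS livers and 0, 1, 3, 10 and 5 counts in the PS livers. These counts overlapped entirely and were too few for the edgeR fit. Mean Tnf was 0.220 ± 0.167 CPM (SD, n = 4) in CS and 0.225 ± 0.227 CPM (SD, n = 5) in PS livers, with a two-sided exact permutation p of 1, where the smallest p this design allows is 0.0159. A difference in Tnf was therefore not detectable at this depth. Of the 9 genes tested by edgeR's quasi-likelihood test, 0 had a Benjamini-Hochberg adjusted p under 0.05, where 0.00758% of the 13195 genes tested passed, and DESeq2's Wald test also called 0 of them, where it called 1.24% of all genes. At an unadjusted p of at most 0.05 there was 1 gene, Relb, against 7.55% of all genes. The CPM ranges of the 2 diets overlapped for all 9 genes, while they were apart for 3.63% of all genes. The median log2 fold change was -0.01 over the 9 genes and -0.03 over all genes tested.

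**Figure D1:**
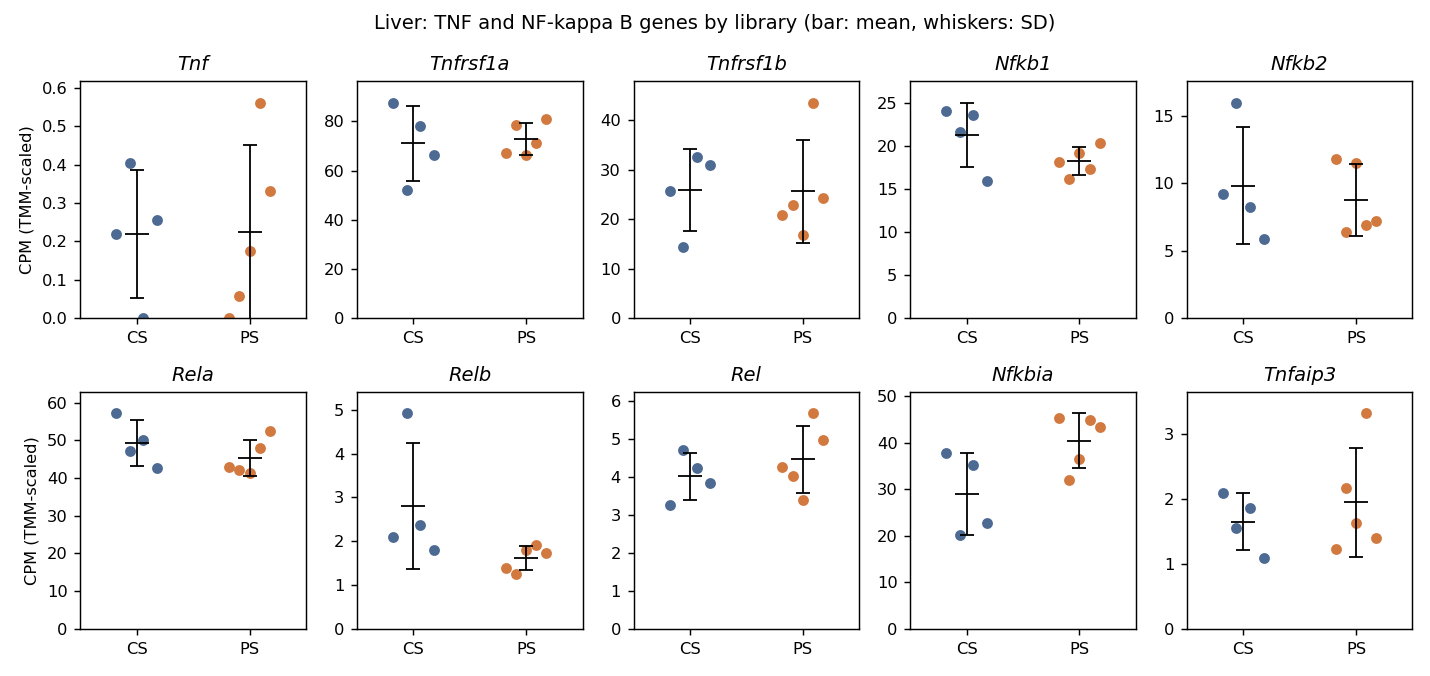
CPM of the 10 genes in each liver library (y axis, TMM-scaled within the liver, linear scale from 0) for the 4 CS and 5 PS mice (x axis); points are libraries, the bar is the mean and whiskers are the SD. The diets overlap in every panel, and in the Relb panel 1 CS library lies at 4.92 CPM, above all others.

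The receptors did not differ between the diets in the liver beyond their spread. Tnfrsf1a, encoding TNF receptor 1, was at 87.7, 52.2, 78.4 and 66.3 CPM in CS livers and at 67.3, 78.7, 66.2, 71.4 and 80.9 CPM in PS livers. The PS values lay within the CS range, with a log2 fold change of 0.03 (SE 0.18, 95% interval -0.36 to 0.43). Tnfrsf1b, encoding TNF receptor 2, was at 25.7, 14.4, 32.7 and 30.9 CPM in CS and at 20.8, 22.8, 16.7, 43.6 and 24.3 CPM in PS livers. Its log2 fold change was -0.01 (SE 0.31, 95% interval -0.69 to 0.66), and the highest value of both groups was that of PS replicate 4.

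Among the Rel family genes in the liver, Relb had the largest fold change, and it rested in part on 1 library. Relb, the partner of p52, was at 2.10, 4.92, 2.38 and 1.79 CPM in CS livers and at 1.39, 1.25, 1.81, 1.91 and 1.72 CPM in PS livers. CS replicate 2 had the highest level of the 9 livers, and CS replicate 4 fell inside the PS range. The log2 fold change was -0.78 (SE 0.36, unadjusted p = 0.0493 and adjusted p = 0.660 by edgeR with Benjamini-Hochberg adjustment), and without liver CS replicate 2 it was -0.37 (unadjusted p = 0.256). The study displayed Relb and Nfkb1 in its heat map of inflammation genes from these livers, so their direction is not independent evidence.

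Nfkb1, which encodes p105 and p50, was at 24.1, 21.7, 23.7 and 15.9 CPM in CS livers and at 18.2, 16.1, 19.2, 17.4 and 20.4 CPM in PS livers. Its log2 fold change of -0.23 (SE 0.17, unadjusted p = 0.212 in edgeR) was within the spread, and 3 of 4 CS livers lay above the PS range. Nfkb2 was at 9.21, 16.0, 8.24 and 5.89 CPM in CS and 11.8, 6.37, 11.5, 6.91 and 7.23 CPM in PS livers. It too was highest in CS replicate 2, and its log2 fold change of -0.17 (SE 0.31) became 0.17 without that library. The log2 fold change was -0.12 (SE 0.15) for Rela, the main transactivating subunit, and 0.15 (SE 0.24) for Rel, the lymphoid c-Rel subunit. Rela was at 42.8 to 57.2 CPM in CS and 41.3 to 52.6 CPM in PS livers, and Rel at 3.26 to 4.72 and 3.38 to 5.67 CPM.

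Among the 9 genes tested in the liver, the inhibitor Nfkbia had the largest positive fold change, short of both thresholds. It was at 37.9, 20.1, 35.1 and 22.9 CPM in CS livers and at 45.4, 31.9, 36.6, 44.9 and 43.3 CPM in PS livers. Of the 5 PS livers, 3 lay above every CS liver, and the lowest PS value fell below CS replicates 1 and 3. The log2 fold change was 0.48 (SE 0.22, 95% interval -0.00426 to 0.96, unadjusted p = 0.0517 and adjusted p = 0.663 in edgeR), and 0.34 (unadjusted p = 0.123) without liver CS replicate 2. Tnfaip3 was at 1.09 to 2.10 CPM in CS and 1.24 to 3.32 CPM in PS livers, with a log2 fold change of 0.24 (SE 0.38) that was -0.04 without PS replicate 4, the highest library.

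Because Nfkbia and Rela encode the inhibitor and the factor it holds in the cytoplasm, their ratio was also taken within each library from the deposited FPKM values, where the scaling between libraries drops out. This ratio was chosen after the values had been seen and is given without a test. It was 1.12, 0.721, 1.18 and 0.902 in CS livers and 1.78, 1.28, 1.49, 1.58 and 1.39 in PS livers. Every PS liver lay above every CS liver, by a narrow margin between 1.18 and 1.28. In the lung the ratio was 2.74, 3.90 and 3.92 in CS and 5.35, 4.37 and 3.32 in PS, and there the diets overlapped.

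Markers of other cells were examined in the same livers. All 12 tested of 14 macrophage markers had a negative log2 fold change in PS livers (median -0.69), with 0 past the adjusted threshold and 3 (Clec4f, C1qa and Csf1r) at an unadjusted p of at most 0.05 in edgeR, 1 of which (Clec4f) remained there without liver CS replicate 2. Their summed level was 268 to 411 CPM in CS and 102 to 329 CPM in PS livers, where the highest, PS replicate 5, lay inside the CS range. All 8 endothelial markers (median -0.56) and all 7 tested T cell markers (median -0.29) also had negative values, with 0 passing either threshold. The summed endothelial level was 104 to 122 CPM in CS and 56.0 to 123 CPM in PS livers, and PS replicate 5 was the highest of all 9 livers. No B cell marker passed the filter, 3 of 8 neutrophil markers did and all 3 had positive values (median 0.07), and Ly6g was at 0 in every liver. The part of these cells in the levels of Tnf, Tnfrsf1b or Relb was not tested, and in bulk tissue fewer cells of a type cannot be told apart from less RNA per cell.

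In the lung all 10 genes passed the filter, and again 0 had an adjusted p under 0.05 in edgeR, while 9.22% of the 16717 genes tested did. DESeq2's Wald test called 1, Tnfaip3, where it called 18.5% of all genes. At an unadjusted p of at most 0.05 there were 3 genes, Nfkb2 with a positive and Tnfaip3 and Rel with a negative fold change, that is 3 of 10 where 30.1% of all genes passed. The diets did not overlap for 3 genes, Tnfaip3, Rel and Nfkbia, where 36.0% of all genes were apart in this design of 3 against 3. The share of these genes past either mark was thus close to that of the whole lung transcriptome. The median log2 fold change was 0.04 over the 10 genes and 0.01 over all genes.

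**Figure D2:**
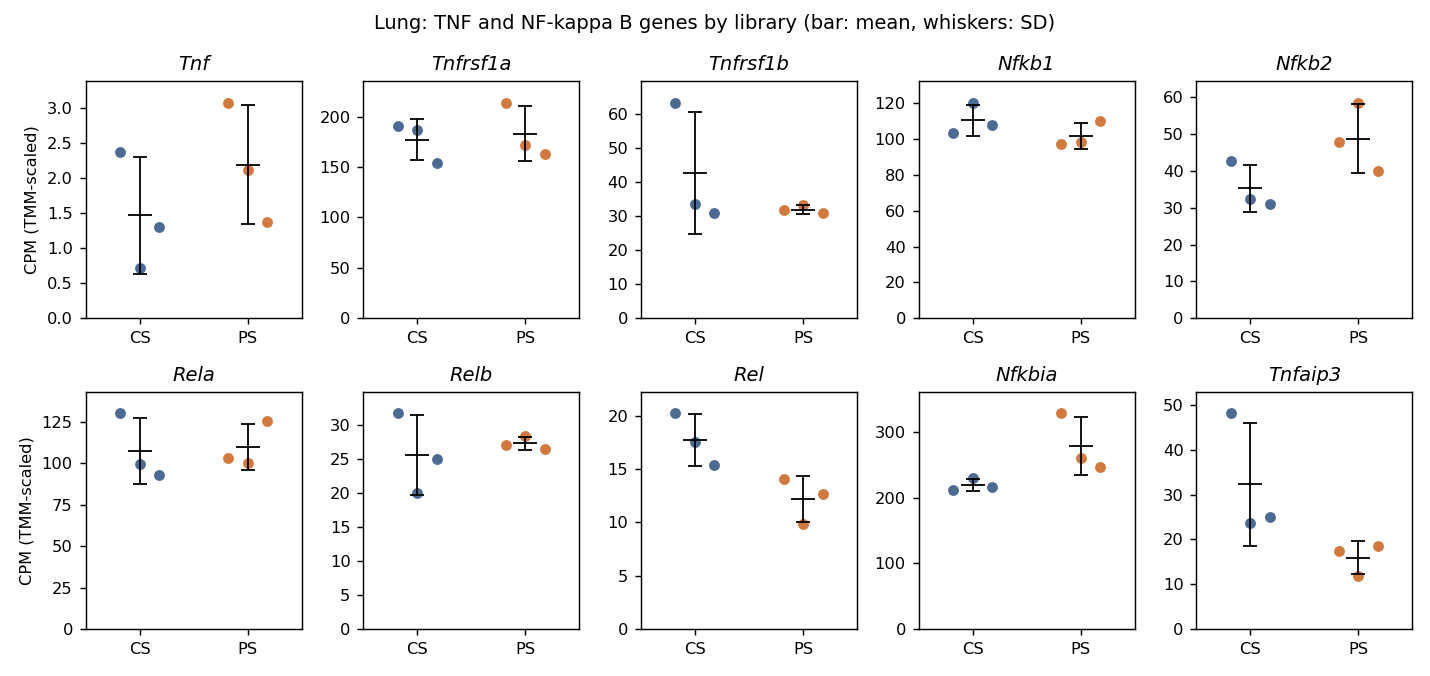
CPM of the 10 genes in each lung library (y axis, TMM-scaled within the lung, linear scale from 0) for the 3 CS and 3 PS mice (x axis); points are libraries, the bar is the mean and whiskers are the SD. Tnfaip3 and Rel lie lower and Nfkbia higher in all 3 PS lungs than in any CS lung, and in the Tnfaip3 and Tnfrsf1b panels 1 CS library, at 48.2 and 63.2 CPM, stands above the rest.

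Tnf was measurable in the lung, with 47, 14 and 24 counts in CS and 52, 38 and 25 counts in PS libraries. The corresponding levels of 2.38, 0.720 and 1.30 CPM and of 3.08, 2.12 and 1.38 CPM overlapped. The log2 fold change was 0.58 with a wide error (SE 0.50, 95% interval -0.55 to 1.70, adjusted p = 0.462 in edgeR). Tnfrsf1a was at 191, 186 and 154 CPM in CS and 214, 172 and 163 CPM in PS lungs, a log2 fold change of 0.05 (SE 0.16). Tnfrsf1b was at 63.2, 33.6 and 30.9 CPM in CS and at 31.7, 33.2 and 30.8 CPM in PS lungs. CS replicate 1 alone made the difference between the means: the log2 fold change was -0.42 (SE 0.26, adjusted p = 0.308 in edgeR) with it and -0.04 without it.

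The Rel family genes of the lung had fold changes of either sign, 0 of which passed the adjusted threshold. Nfkb2 was at 42.7, 32.3 and 30.9 CPM in CS and at 47.8, 58.6 and 39.9 CPM in PS lungs, with 2 of 3 PS lungs above every CS lung. The log2 fold change was 0.47 (SE 0.19, unadjusted p = 0.0395 and adjusted p = 0.143 in edgeR), and it was 0.26 (unadjusted p = 0.271) once each library's trend with GC content was removed. The exons of Nfkb2 overlap those of Psd on the other strand by 4 bases in the gene extent of the count table. Rel was at 20.2, 17.5 and 15.4 CPM in CS and at 14.0, 9.82 and 12.7 CPM in PS lungs. All 3 PS lungs were lower, with a log2 fold change of -0.54 (SE 0.20, unadjusted p = 0.0253 and adjusted p = 0.111 in edgeR). Leaving out 1 library gave unadjusted p values of 0.0144 to 0.0777 for Rel and of 0.0135 to 0.146 for Nfkb2.

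Nfkb1 was at 103, 120 and 108 CPM in CS and 97.0, 98.4 and 110 CPM in PS lungs, a log2 fold change of -0.12 (SE 0.13). Rela was at 130, 99.4 and 93.2 CPM in CS and 104, 101 and 126 CPM in PS lungs, a log2 fold change of 0.03 (SE 0.17). Relb was at 31.7, 20.0 and 25.0 CPM in CS and 27.1, 28.4 and 26.5 CPM in PS lungs, a log2 fold change of 0.09 (SE 0.19). For these 3 genes the diets overlapped, and the 95% intervals of the log2 fold change lay between -0.42 and 0.51.

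The 2 feedback inhibitors had fold changes of opposite sign in the lung. Nfkbia was at 212, 230 and 216 CPM in CS and at 329, 261 and 248 CPM in PS lungs. Every PS lung lay above every CS lung, with a log2 fold change of 0.35 (SE 0.16, unadjusted p = 0.0567 and adjusted p = 0.178 in edgeR). Tnfaip3, which encodes the A20 brake on the TNF receptor complex, was at 48.2, 23.7 and 25.0 CPM in CS and at 17.5, 11.8 and 18.5 CPM in PS lungs.

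Every PS lung lay below every CS lung for Tnfaip3, and CS replicate 1 was well above the other CS lungs. The same library stood apart in other genes, picked after their values were seen, with 65 counts of Cxcl2 against 2 and 2 and 31 counts of Il6 against 2 and 4 in the other CS lungs. Its summed B cell markers were at 218 CPM against 129 and 144, its summed T cell markers at 112 CPM against 75.5 and 73.7, and its summed hepatocyte markers at 134 CPM against 39.3 and 6.95. Their part in the levels of Tnfaip3 and Tnfrsf1b was not tested. The log2 fold change of Tnfaip3 was -1.02 (SE 0.30, 95% interval -1.70 to -0.34), with an adjusted p of 0.0615 in edgeR and 0.0110 in DESeq2's Wald test. The edgeR value was 0.0418 with no filter on low counts and 0.0352 with the replicate number as a block, so the side of the threshold depended on the setting. Without lung CS replicate 1 the log2 fold change was -0.64 (adjusted p = 0.161), and leaving out any 1 lung library gave adjusted p values of 0.0755 to 0.191. Within libraries, the ratio of Tnfaip3 to Nfkbia FPKM was 0.0507, 0.0230 and 0.0257 in CS and 0.0118, 0.0101 and 0.0167 in PS lungs, without overlap. This ratio was likewise chosen after the values had been seen. It had to separate, because the diets were already apart in opposite directions for both genes, so it adds no support.

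**Figure D3:**
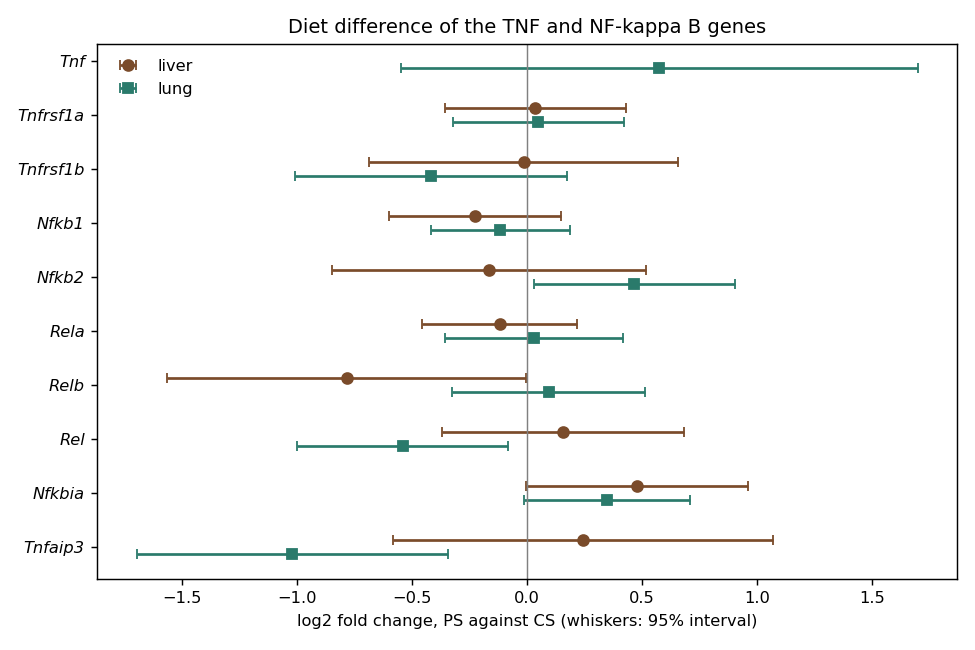
log2 fold change of PS against CS (x axis) for each of the 10 genes (y axis) in the liver (circles) and the lung (squares), with 95% intervals from edgeR; Tnf has no liver value because it did not pass the filter. The intervals of Tnfaip3, Rel and Nfkb2 in the lung and of Relb in the liver leave out 0 before adjustment, and 0 of the 19 values pass after it.

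The diet effect was then compared between the tissues in 1 model over the 15 libraries. In edgeR 0 of the 10 genes had an adjusted p under 0.05 for the difference, where 0.0226% of 17696 genes did, and DESeq2's Wald test called 0 as well, against 1.29% of all genes. At an unadjusted p of at most 0.05 there were 2 genes, against 10.9% of all genes. For Tnfaip3 the difference, taken as lung minus liver, was -1.32 on the log2 scale (SE 0.51, unadjusted p = 0.0193 and adjusted p = 0.390 in edgeR), and for Rel it was -0.74 (SE 0.34, unadjusted p = 0.0438 and adjusted p = 0.449). For the other 8 genes the differences ranged from -0.44 to 0.82, the latter for Relb (SE 0.42), which was at 0.44 without liver CS replicate 2 (unadjusted p = 0.204) and at an unadjusted p of 0.0463 without lung CS replicate 1. Without lung CS replicate 1 the difference was -0.91 for Tnfaip3 (unadjusted p = 0.0963) and -0.64 for Rel (unadjusted p = 0.110). The opposite signs of Relb, Rel or Tnfaip3 in the 2 tissues were therefore not established as a difference.

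Levels were compared between the tissues in the same model, as the mean of the lung groups minus the mean of the liver groups. Of the 10 genes, 7 had a higher lung level with an adjusted p under 0.05, where 42.3% of all genes were, and 1 was lower, where 34.4% of all genes were. Relb and Tnfaip3 both differed by 2.26 on the log2 scale (SE 0.21 and 0.25), Tnf by 1.60 (SE 0.57), Nfkbia by 1.47 (SE 0.16), Nfkb1 by 1.04 (SE 0.11), Nfkb2 by 0.78 (SE 0.20) and Rel by 0.41 (SE 0.17). Tnf, at 0 to 10 counts in the livers, did not pass the filter there and entered this model through the lung, so the filter itself favoured a higher lung value. With at least 10 counts required in every library, Tnf was left out. Then 6 of 9 genes were called higher and 1 lower, where 3860 and 3929 of 10572 genes were. The 7 genes called higher in the main fit were positive with TMM, with DESeq2's size factors and with library totals. Tnfrsf1b was lower in the lung with TMM, at -0.88 (SE 0.24), and higher with library totals, at 0.50. Tnfrsf1a (-0.07, SE 0.14) and Rela (-0.19, SE 0.12), which serve most cell types, did not pass the test.

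Several of these calls changed once a trend with gene length or GC content was removed from each library, alternatives added after the data had been seen. With the length trend removed, Nfkb1 was at 0.12 (adjusted p = 0.289 in edgeR) and Rel at -0.23 (adjusted p = 0.221), which ended both calls. Rela was called lower at -0.31 (adjusted p = 0.0244). The median of all genes also moved, from 0.17 to -0.24. Relative to the median, Nfkb1 went from 0.87 to 0.36, Rel from 0.24 to 0.01 and Rela from -0.35 to -0.07. With the GC trend removed, Nfkb2 at 0.21 (adjusted p = 0.288), Rel at 0.22 (adjusted p = 0.237) and Tnf at 1.19 (adjusted p = 0.0699) lost the call. Rela at -0.80 (adjusted p = 5.21e-05) and Tnfrsf1a at -0.49 (adjusted p = 0.00678) were called lower. In edgeR 4 genes were then called higher and 3 lower, where 6454 and 7465 of all 17696 genes were. The median of all genes moved from 0.17 to -0.16. Relative to the median, Nfkb2 went from 0.62 to 0.37, Rel from 0.24 to 0.38 and Tnf from 1.44 to 1.35. Rela went from -0.35 to -0.64 and Tnfrsf1a from -0.23 to -0.33. Relb, Tnfaip3 and Nfkbia were called higher and Tnfrsf1b lower in both. Rel also missed the threshold with no filter (adjusted p = 0.0524) and in 6 of the 15 fits that left out 1 library (up to 0.0919), and Tnf missed it without lung CS replicate 1 (adjusted p = 0.0646).

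These values depend on how 2 tissues of different composition are scaled. The median log2 difference over all genes was 0.17 with TMM, 0.31 with DESeq2's size factors and 1.55 with library totals as the only scaling, an alternative added after the data had been seen. It was -0.16 with the GC trend removed and -0.24 with the length trend removed. With library totals all 10 genes were higher in the lung, 9 of them called. The share of calls in the direction of the lung over all genes went from 55.2% to 83.1% with it. The count of genes above the median of all genes was 7 of 10 with TMM, 6 of 10 with no filter, 8 of 10 with the length trend removed and 8 of 9 with at least 10 counts in every library. Endothelial markers were higher in the lung for 6 of 8 and T cell markers for all 8, of which 7 passed the filter in the liver. B cell and neutrophil markers are not counted, because 0 and 3 of 8 passed it there. Of the 14 macrophage markers 10 had negative values in the lung with TMM (7 called lower and 4 higher, median -0.48). Only 12 of the 14 passed the filter in the liver and 12 in the lung. For a marker that failed in either tissue, the filter favoured a higher value in the other. The part of those cells in the levels of Relb, Tnfaip3 or Tnf was not tested. With the mouse as a block, over the 12 libraries of the 6 mice with both tissues, 5 genes were called higher and 1 lower, and Tnf (adjusted p = 0.0578) and Rel (adjusted p = 0.0592) were not called.

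**Figure D4:**
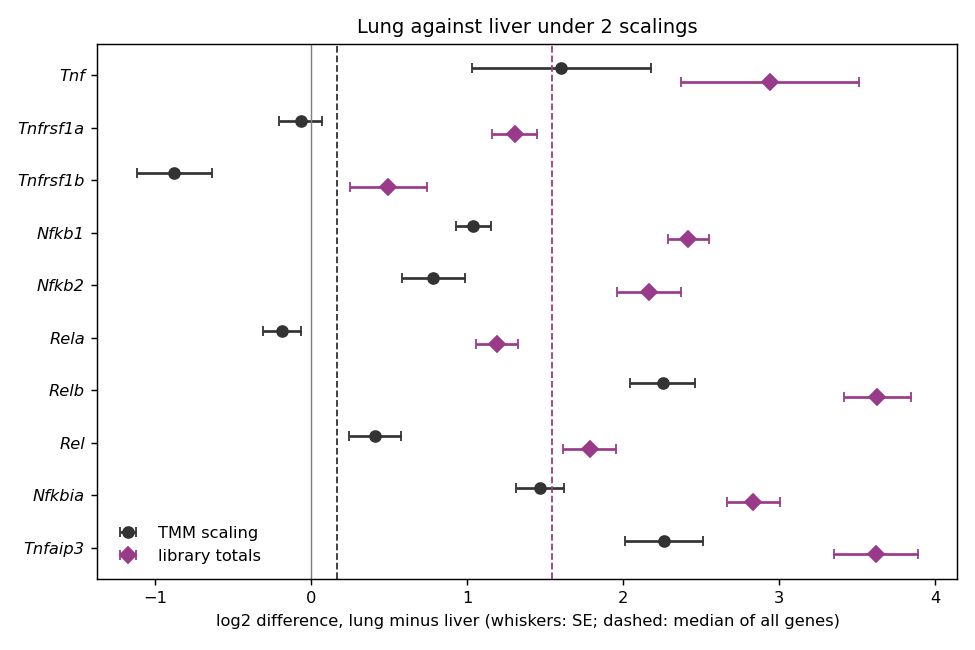
log2 difference of lung minus liver (x axis) for each of the 10 genes (y axis) under TMM scaling (circles) and library totals (diamonds); whiskers are SE and dashed lines mark the median of all genes under each scaling, 0.17 and 1.55. Relb, Tnfaip3, Tnf, Nfkbia, Nfkb1, Nfkb2 and Rel lie to the right of the dashed line under both scalings, and Tnfrsf1b, Rela and Tnfrsf1a to its left.

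The order of the levels per gene length was read from the FPKM values, over the diets together, with gene lengths in the table of 1610 bases for Nfkbia to 12061 bases for Nfkb1. In the liver Tnfrsf1a was highest (20.2 to 34.6 FPKM, median 28.3), followed by Nfkbia (12.6 to 28.7, median 22.7) and Rela (15.2 to 21.5, median 17.4), whose ranges overlapped each other. Tnfrsf1b (median 6.42), Nfkb2 (2.57) and Nfkb1 (1.59) came next, and Rel (0.576), Relb (0.472), Tnfaip3 (0.226) and Tnf (0.138) were lowest. The ranges of neighbours in this order overlapped except between Rela and Tnfrsf1b and between Nfkb1 and Rel. In the lung Nfkbia was highest (132 to 207 FPKM, median 148), and its range did not overlap that of Tnfrsf1a (59.1 to 83.7, median 69.7), which in turn was apart from Rela (34.2 to 48.3, median 38.1).

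Nfkb2 (median 12.5 FPKM in the lung), Nfkb1 (8.76) and Tnfrsf1b (8.60) came next, followed by Relb (6.91), Tnfaip3 (2.92), Rel (1.98) and Tnf (1.07). Rela was apart from Nfkb2, and the ranges of all later neighbours overlapped. By these medians over both diets, Tnfrsf1a ranked above Nfkbia in the liver and below it in the lung, and Tnf was lowest in both. In single livers Tnfrsf1a exceeded Nfkbia in 7 of 9 and Tnfaip3 exceeded Tnf in 6 of 9. These rankings hold within a tissue, because the liver and lung tables were scaled separately.

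The make-up of the Rel family mRNA, taken as shares of the summed FPKM of the 5 genes within each library, was compared between the tissues. Rela made up 67.0% to 79.5% in the 9 livers (median 78.5%) and 51.7% to 60.9% in the 6 lungs (median 56.7%). Relb, the non-canonical subunit, made up 1.64% to 4.88% in the livers and 8.07% to 10.5% in the lungs, and Nfkb1 6.40% to 8.16% and 10.7% to 15.6%. The gap of Nfkb1 to Rela depended on how each library varied with gene length: once that trend was removed from the counts, the lung minus liver difference went from 1.04 to 0.12 on the log2 scale for Nfkb1 and from -0.19 to -0.31 for Rela. The shares of Nfkb2 (9.02% to 18.7% and 15.4% to 24.9%) and Rel (1.63% to 3.38% and 1.84% to 3.67%) overlapped. These shares were chosen after the values had been seen and are given without a test.

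Between the diets, the share of Rel in the lung was 3.37% to 3.67% in CS and 1.84% to 2.70% in PS, without overlap. The CPM ranges of Rel were apart as well, like those of 36.0% of all lung genes, so this is not a separate result. The share of Nfkb2 was 15.4% to 16.1% in CS and 15.9% to 24.9% in PS, with overlap. In the liver Rela had a mean share of 75.3% ± 5.69 (SD, n = 4) in CS and of 76.2% ± 3.84 (SD, n = 5) in PS, a difference smaller than the SD. The lowest Rela share of the livers was that of CS replicate 2, which had the highest shares of Nfkb2 and Relb.

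**Figure D5:**
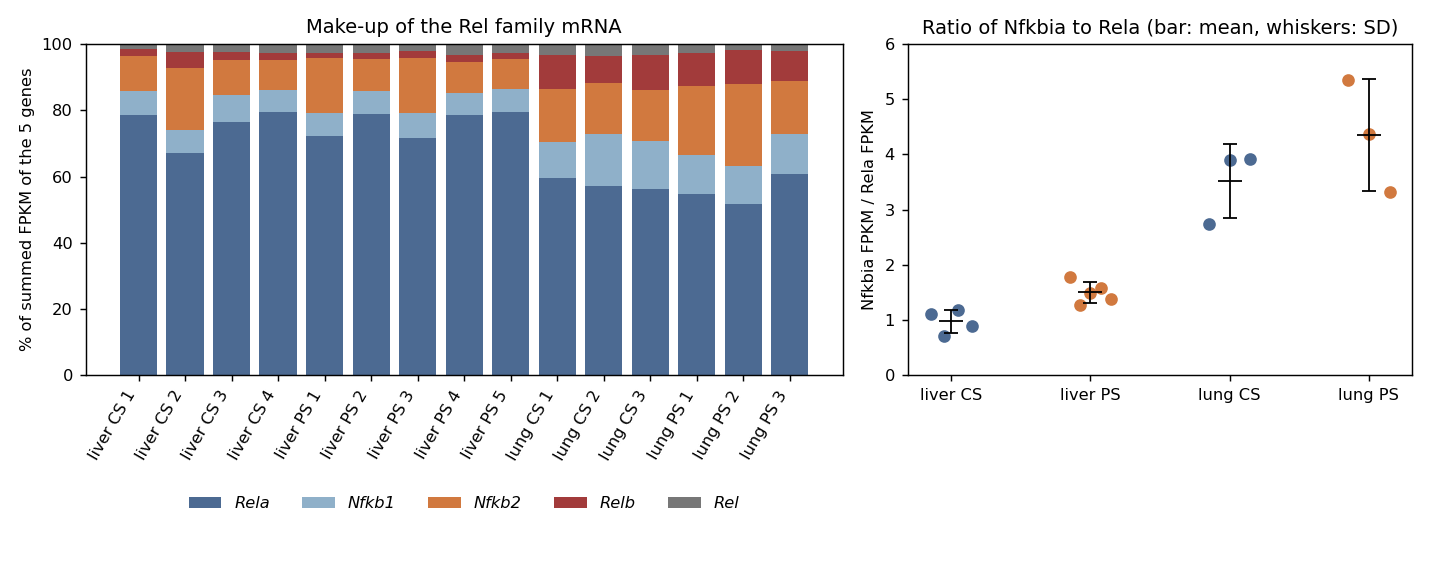
Left, shares of Rela, Nfkb1, Nfkb2, Relb and Rel in their summed FPKM (y axis, %) in each of the 15 libraries (x axis); right, the ratio of Nfkbia to Rela FPKM (y axis, linear scale from 0) by tissue and diet, with points for libraries, the bar for the mean and whiskers for the SD. Rela takes a smaller and Relb a larger share in every lung than in any liver, and the ratio is 0.721 to 1.18 in CS and 1.28 to 1.78 in PS livers.

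The rest of the pathway was covered by 4 lists. In the liver, 0 of the 27 adaptors, kinases and regulators had an adjusted p under 0.05, 19 had a negative and 8 a positive log2 fold change (median -0.14), and 1 was at an unadjusted p of at most 0.05 in edgeR, where 7.55% of all genes were. That gene was Tab2, an adaptor of the TAK1 kinase, at 70.2 ± 4.31 CPM (SD, n = 4) in CS and 53.7 ± 6.99 CPM (SD, n = 5) in PS livers (log2 fold change -0.39, SE 0.15). It missed that mark with no filter, with the replicate block and in 5 of the 9 fits without 1 library (unadjusted p up to 0.0654). Of the 5 other I kappa B proteins (Nfkbib, Nfkbie, Nfkbiz, Nfkbid and Bcl3) 3 had positive values and 0 passed either threshold, and of 11 ligands and receptors of the non-canonical arm 5 were tested, with 0 passing either threshold.

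Of the 30 target genes, 19 were tested in the liver, 10 with positive and 9 with negative fold changes (median 0.17), and 0 had an adjusted p under 0.05. At an unadjusted p of at most 0.05 in edgeR there were 3, where 7.55% of all genes passed. Gadd45b, a stress-induced survival gene, was at 14.7 ± 9.17 CPM (SD, n = 4) in CS and 4.78 ± 1.62 CPM (SD, n = 5) in PS livers (log2 fold change -1.62, SE 0.49, adjusted p = 0.385). Il1b, the inflammatory cytokine, was at 4.28 ± 1.59 and 1.26 ± 0.994 CPM (log2 fold change -1.74, SE 0.54). Zc3h12a, an RNase that degrades cytokine mRNAs, was at 2.93 ± 0.942 and 4.49 ± 0.416 CPM (log2 fold change 0.62, SE 0.27), with unadjusted p values of up to 0.128 when 1 library was left out. Gadd45b, Il1b and Tab2 were also in the heat map that the study drew from these livers, so their direction is not independent evidence.

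In the lung, 5 genes of the lists had an adjusted p under 0.05, namely 3 of 27, 0 of 5, 1 of 11 and 1 of 29 tested, where 9.22% of all genes passed. Among the 27 adaptors, kinases and regulators, 14 had positive and 13 negative fold changes (median 0.11), and 3 passed. Sharpin, a subunit of the linear ubiquitin ligase, was at 30.8 ± 1.88 CPM (SD, n = 3) in CS and 56.9 ± 6.76 CPM (SD, n = 3) in PS lungs, and rose by a log2 fold change of 0.89 (SE 0.15, adjusted p = 0.0204 in edgeR). Traf1, an adaptor that is itself an NF-kappa B target, rose from 65.1 ± 9.19 to 132 ± 32.2 CPM, a log2 fold change of 1.02 (SE 0.21, adjusted p = 0.0300). Ikbkg, which encodes the kinase subunit NEMO, fell from 65.4 ± 4.98 to 39.5 ± 7.16 CPM, a log2 fold change of -0.73 (SE 0.17, adjusted p = 0.0378), and its exons overlap those of G6pdx on the other strand by 418 bases.

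Of the 11 ligands and receptors of the non-canonical arm 1 passed in the lung, with a median over the list of 0.02. This was Tnfsf12, the ligand TWEAK, at 25.4 ± 1.35 CPM (SD, n = 3) in CS and 54.0 ± 11.2 CPM (SD, n = 3) in PS lungs, a log2 fold change of 1.09 (SE 0.18, adjusted p = 0.0203 in edgeR). Its exons share 731 bases on the same strand with the readthrough gene Tnfsfm13, so the split of reads between the pair is uncertain. Of the 29 target genes tested 17 had positive and 12 negative fold changes (median 0.17), and 1 passed. That was Gadd45b again, at 130 ± 7.16 CPM in CS and 208 ± 20.4 CPM in PS lungs, a rise of 0.68 on the log2 scale (SE 0.14, adjusted p = 0.0317). The 5 other I kappa B proteins all had positive fold changes in the lung (median 0.34), with 0 passing either threshold in edgeR.

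These 5 lung calls, like most calls in the lung, depended on which library was left out. Without any 1 of lung CS replicates 1, 2 or 3 or of PS replicate 2, the adjusted p of Sharpin, Traf1, Ikbkg, Tnfsf12 and Gadd45b was 0.0788 to 0.130, with log2 fold changes of 0.81 to 0.96 for Sharpin, 0.89 to 1.14 for Traf1, at least 0.96 for Tnfsf12, 0.61 to 0.70 for Gadd45b and -0.80 to -0.59 for Ikbkg. Over all genes those 4 fits called 0 to 26, against 1542 with every library, while 2949 and 2256 were called without PS replicate 1 or 3, where the 5 genes passed as well. With the GC content trend removed, Ikbkg (-0.61, adjusted p = 0.0549) and Gadd45b (0.55, adjusted p = 0.0618) lost the call. Among the markers of other cells, 6 of 7 tested neutrophil markers had positive values in PS lungs (median 0.50, Csf3r called higher), with summed levels of 115 to 363 CPM in CS and 228 to 504 CPM in PS. Of the macrophage markers 9 of 12 had positive values and Adgre1 was called lower, of the endothelial markers 4 of 8 had positive values and Kdr was called lower, and of the B cell markers 6 of 8 had negative values with 0 called. T cell markers had 6 of 8 positive values with 0 called. The part of these cells in the values of the pathway genes was not tested.

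Gadd45b had fold changes of opposite sign in the 2 tissues, and the test of the difference gave 2.25 on the log2 scale (SE 0.61, unadjusted p = 0.00202 and adjusted p = 0.258 in edgeR). The difference was 2.51 (SE 0.89, unadjusted p = 0.0121 in edgeR) for Cd40, which encodes a receptor of the non-canonical arm. Cd40 was at 1.36 ± 1.58 CPM in CS and 0.262 ± 0.183 CPM in PS livers and at 20.3 ± 2.93 and 24.0 ± 1.43 CPM in CS and PS lungs. Cd40 did not pass the filter in the liver and entered the model through the lung, so its liver side rests on few counts. Without liver CS replicate 2, which held 55 counts of Cd40 against 6 to 12 in the other CS livers, it was 1.34 and no longer passed the unadjusted mark. Over the 4 lists 0 genes had an adjusted p under 0.05 for the difference between tissues in edgeR. At an unadjusted p of at most 0.05 there were 5 of 27 regulators (Rnf31, Tab1 and Traf2 with positive and Ikbkg with negative values among the 4 with the smallest p), 1 of 11 non-canonical genes and 1 of 29 target genes, where 10.9% of all genes passed. Those 4 regulators had unadjusted p values of 0.0584 to 0.0703 without liver CS replicate 2. Cd40, Traf2 and Gadd45b stood in the heat map of the study as well.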

How the data were processed

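Adapter-containing and low-quality reads were removed by the authors, who aligned the read pairs (mouse build mm10) with HISAT2 2.0.5 and counted them per gene with featureCounts 1.5.0-p3. These deposited counts are raw. In the deposited FPKM tables the authors had divided each count by gene length and by a library factor, separately in each tissue. The strand setting of the counting is not given in the sources used here. The authors' own comparisons were made with DESeq2 1.20.0 and none of their values was used.

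Groups came from the sample titles. From the counts, edgeR 4.0.16 (R 4.3.3) with TMM, filterByExpr and the robust quasi-likelihood test was fitted over all genes: PS against CS in each tissue, and 1 model of 15 libraries for the difference of the diet effects and for lung against liver. Benjamini-Hochberg adjustment ran over all genes tested. The SE is the log2 fold change divided by the square root of F. Tnf in the liver was tested by an exact permutation test. Alternatives used DESeq2 1.42.0, limma 3.58.1, other filters and scalings, and removal of GC and length trends. Fits were tested on simulated counts. Total counts were at least 14410117 per library. Within a tissue, p-values measure the spread between mice. In the joint model the 15 libraries were fitted as independent, although some mice gave both a liver and a lung. Its p-values therefore do not measure that spread alone.

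The 10 genes and all lists were chosen with earlier results of these data known. By rule, list genes were named where the adjusted p was under 0.05, or else up to 4 per list and comparison with the smallest unadjusted p of at most 0.05.

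Replicate numbers did not pair the samples: deviations from the group means correlated at -0.41 to -0.02 in the liver and -0.01 to 0.09 in the lung. Liver and lung libraries of 1 mouse are true pairs by the labels, with correlations of -0.06 to 0.12.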

Additional observations from a re-analysis of the deposited data

Results flagged for a closer look

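Of 54 sets of values from the 10 genes, their ratios and the marker sums, each over a group of 4 or 5 libraries, 5 held a library far from the others by Dixon's criterion, where chance flags about 1 in 20 groups. Tnfrsf1b was at 43.6 CPM in liver PS replicate 4, above the other PS livers at 16.7 to 24.3 CPM, and in the same library the ratio of Tnfrsf1b to Tnfrsf1a FPKM was 0.414, with the other PS livers at 0.172 to 0.210. The summed hepatocyte markers of liver PS replicate 4 were at 98645 CPM, below those of the other PS livers. In liver CS replicate 2 the ratio of Relb to Rela FPKM was 0.0729, against 0.0256 to 0.0333 in the other CS livers, and Nfkb2 made up 18.7% of the Rel family FPKM. Groups of 3 lungs were not examined in this way.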

How the results depend on the processing

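Of the 10 genes, 0 had an adjusted p under 0.05 for the diet in the liver under any alternative that was run, and 0 for the difference between tissues. In the lung the count was 1, Tnfaip3, with DESeq2's Wald test, with no filter and with the replicate block, and 0 under the others. Over all genes, calls in the liver (1 in the main analysis) numbered 163 with DESeq2's Wald test, 26 with no filter, 2 with at least 10 counts in every library, 6 and 4 with limma-trend on log2 FPKM at pseudocounts of 1 and 0.1, and 0 with the replicate block, library totals, or the GC or length trend removed. In the lung (1542) there were 3090 with the Wald test. For the difference between tissues (4) there were 228 with the Wald test, 10 with no filter, 569 and 73 with limma-trend at the pseudocounts 1 and 0.1, and 1 with the GC trend removed. For lung against liver (13579) there were 7789 with at least 10 counts in every library, which tested fewer genes. Leaving out 1 library gave 0 to 65 calls in the liver (65 without CS replicate 2), 0 to 2949 in the lung (0 without CS replicate 3, 23 without CS replicate 1, 26 without CS replicate 2, 9 without PS replicate 2, 2949 without PS replicate 1), 0 to 12 for the difference and 13294 to 13992 for lung against liver. The cause was not tested. For Tnf in the liver the difference of -0.0523 on log2(FPKM + 0.1) (exact permutation p = 0.968) had the opposite sign to the CPM, and leaving out 1 library gave -0.0794 to 0.0661 CPM.

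The direction of a member turned as follows. In the liver Tnfrsf1a was -0.012 with library totals and -0.016 with the length trend removed, and Tnfrsf1b 0.022 with the GC trend removed. Without 1 library in turn Tnfrsf1a ranged from -0.089 to 0.15, Tnfrsf1b from -0.30 to 0.12, Nfkb2 from -0.34 to 0.17 and Tnfaip3 from -0.043 to 0.38. In the lung, library totals gave -0.036 for Tnfrsf1a and -0.045 for Rela, the GC trend removed gave -0.046 for Tnfrsf1a, 0.00464 for Nfkb1, -0.19 for Rela and -0.039 for Relb, and the length trend removed gave 0.016 for Nfkb1. Without 1 library Tnfrsf1a ranged from -0.085 to 0.12, Rela from -0.077 to 0.16 and Relb from -0.074 to 0.25. For the difference between tissues Tnfrsf1a was 0.00823 with DESeq2's size factors, 0.00841 with the Wald test, 0.00715 with at least 10 counts, 0.00104 with log2(FPKM + 1), 0.093 with the replicate block and 0.012 with the length trend removed, and Rela was -0.15 with the GC trend removed. Without 1 library Tnfrsf1a ranged from -0.18 to 0.11, Rela from -0.00051 to 0.26 and Nfkb1 from -0.014 to 0.17. For lung against liver Tnfrsf1a was 0.081 with DESeq2's size factors and with the Wald test, 0.014 with no filter, 0.21 with at least 10 counts, 0.038 with the replicate block, 1.31 with library totals and -0.14 to 0.050 without 1 library. Library totals gave 0.50 for Tnfrsf1b and 1.19 for Rela, at least 10 counts 0.089 for Rela, and the length trend removed -0.23 for Rel. The median of all genes moved too, to 1.55 with library totals and -0.24 with the length trend removed. Relative to it, Tnfrsf1b was -1.05 and Rela -0.35 with library totals, and Rel 0.01 with the length trend removed.

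With the replicate number as a block, which marks no shared batch here, calls over all genes went from 1 to 0 in the liver and from 1542 to 1623 in the lung. With the mouse as the replicate block, calls went from 4 to 0 for the difference between tissues and from 13579 to 12382 for lung against liver. Limma-trend on FPKM was not run for lung against liver, because the tables of the tissues were scaled separately. Depth limits Tnf in the liver, with at most 10 counts in a library.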

Other observations

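Patterns over the 15 libraries were compared by the mean absolute difference of log2 CPM, z-scored within each tissue. The genes most like a given member were taken from 10525 genes. For Nfkbia they were Irf2bp1 (0.367), Snx3 (0.399) and Galns (0.405), where the median over all genes was 1.03. For Tnfaip3 they were Plekha1 (0.321), Rc3h2 (0.379) and Prkx (0.385), with a median of 1.06. For Nfkb2 they were Mast2 (0.287), Taf4 (0.297) and Ammecr1l (0.302), with a median of 1.08, and for Relb they were Zrsr2 (0.444), Prex1 (0.453) and Rassf4 (0.458), with a median of 1.05. Scoring within each tissue removes the difference in level between the tissues. The points share libraries, so these values are a description.

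In lung against liver, the 5 other I kappa B proteins split. Nfkbid was higher in the lung by 1.54 on the log2 scale (SE 0.44) and Nfkbie by 1.01 (SE 0.23), while Bcl3, an atypical member that binds p50 and p52, was lower by this measure at -1.38 (SE 0.18) and Nfkbib at -1.27 (SE 0.12). Nfkbiz, at 0.44 (SE 0.25), did not pass the test in edgeR. These directions are relative to TMM scaling: with library totals as the only scaling, Bcl3 and Nfkbib lost the call (adjusted p = 0.993 and 0.379 in edgeR) and the 5 values were all positive. For the ligands and receptors of the non-canonical arm and the target genes no count is given in lung against liver, because 5 of the 11 and 19 of the 29 tested passed the filter in the liver itself and the others entered the joint model through the lung.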
